A study of Mus musculus with 16 samples.

Results

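Insulin receptor, Irs and Foxo signalling is represented here by 10 genes, chosen by name as the central route from the insulin receptor to its nuclear effectors: Insr, Irs1, Irs2, Grb10, Pik3r1, Pik3ca, Akt1, Akt2, Foxo1 and Foxo3. All 10 were found, with 1 row each, among 46078 genes in a table of liver RNA-seq counts. The livers came from 16 male mice of the strain labelled C56B6/J, whose age the labels do not give, and the labels name no transgene or deleted allele. The study's methods write the strain as C57BL6/J and do give an age for its mice at the start of the diets. For 16 weeks the food was either a control diet, CD, or a diet rich in fat, HFD, with 60% of its energy from fat. Livers were taken from fed mice or after 16 h without food, which made groups of 4 libraries called CD fed, CD fast, HFD fed and HFD fast. The question addressed is how fasting and diet change the messages of this pathway, and whether the response to fasting differs between the diets. The labels number the livers within a group but do not say how the mice were housed or handled together.

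Insulin bound to its receptor, a tyrosine kinase encoded by Insr, leads to phosphorylation of the adaptor proteins Irs1 and Irs2, which recruit phosphoinositide 3-kinase. The lipid signal of that kinase activates Akt, and Akt phosphorylates the transcription factors Foxo1 and Foxo3 and keeps them out of the nucleus. In the fasted liver, when insulin is low, Foxo1 enters the nucleus and raises genes of gluconeogenesis as well as Irs2 itself. Most of this pathway is regulated by phosphorylation, which RNA levels do not show.

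Among the 10 genes, fasting in CD mice raised Akt1 and lowered Pik3ca and Grb10, and HFD lowered Irs2 in fasted mice. Of these calls, that of Grb10 held under every alternative, that of Akt1 without each library, and those of Pik3ca and Irs2 were lost without single libraries. No gene of the 10 passed the test for fasting in HFD mice, for HFD in fed mice or for the diet by fasting interaction. Calls were made with edgeR's quasi-likelihood test at a Benjamini-Hochberg adjusted p under 0.05 over 15075 tested genes, and all 10 genes passed the filter on low counts. For fasting in CD, 3 of the 10 were called, against 25.2% of all tested genes. For fasting in HFD 0 were called against 8.86%, and for HFD in fed mice 0 against 7.5%. For HFD in fasted mice 1 was called against 7.7%, and for the interaction 0 against 2.59%. With so few genes, these counts do not set the pathway apart from the rest of the transcriptome. The median log2 fold change of the 10 was 0.04 for fasting in CD, -0.05 for fasting in HFD, -0.11 for HFD in fed mice and -0.09 for HFD in fasted mice, beside medians over all tested genes of -0.01, 0.01, 0.01 and 0.01.

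For the counts of 0, unadjusted p values under 0.05 were seen for 0 genes in fasting in HFD, 3 in HFD in fed mice and 4 in the interaction, against 25.6%, 22.9% and 20.2% of all genes. DESeq2 also called 0 in each of these, against 13.3%, 11.7% and 7.07% of all genes, and limma-voom 0 against 8.56%, 7.28% and 2.37%. Unadjusted p values under 0.05 by edgeR were seen for 5 genes in fasting in CD and 6 in HFD in fasted mice. The shares of all genes with such p values were 37.6% and 25.9%. The comparison of HFD with CD in fasted mice and that of fasting in CD share the CD fast libraries, so their results are not independent of each other.

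Sequences upstream of the adaptor genes are shown first, because Irs2 is described as a gene that both FOXO proteins and E-box-binding factors act on. The windows are RefSeq promoter windows on GRCm38.p6, running from 250 bases before to 50 bases after an annotated start, and 9 of the 10 genes have at least 1. In both Irs genes a stretch on the minus strand holds an E-box, CACGTG, followed by a TGTTT core of the kind found in FOXO-binding sites. Capitals mark these matches, which overlap in Irs1 and are separated by 1 base in Irs2. The Irs1 stretch lies at chr1:82291531-82291566 and the Irs2 stretch at chr8:11008950-11008985.
Irs1: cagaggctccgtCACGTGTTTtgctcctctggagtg
Irs2: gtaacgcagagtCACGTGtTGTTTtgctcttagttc

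The longest runs the stretches share are GTCACGTGTT, which holds the E-box, and TGTTTTGCTC, which holds the core, each 10 bases long. The E-box began 115 bases before the start of Irs1 and 44 bases before that of Irs2. Searched on both strands, CACGTG was present in 7.15% of 32851 windows of this length, and TGTTT in 50.5%, and the core alone is thus common. The longer FOXO-type element TTGTTTAC, which contains the core, was present in 1.23% of windows. Among the windows of the 10 genes it occurred in 1, upstream of Akt1, beginning 162 bases before the start. That window is chr12:112674835-112675134 on the minus strand, with TTGTTTAC and the core on the opposite strand (AAACA) in capitals.
Akt1: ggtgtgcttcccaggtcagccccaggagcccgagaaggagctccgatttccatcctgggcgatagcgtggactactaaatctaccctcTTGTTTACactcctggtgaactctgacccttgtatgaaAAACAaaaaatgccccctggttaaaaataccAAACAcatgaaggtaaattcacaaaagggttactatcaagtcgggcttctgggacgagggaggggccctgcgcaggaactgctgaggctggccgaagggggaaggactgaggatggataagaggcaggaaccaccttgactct

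A second Akt1 window held none of these letters, and in Igfbp1, whose level followed that of Irs2 as described further on, the window chr11:7197537-7197836 on the plus strand held the core only on the opposite strand, at 2 places.
Igfbp1: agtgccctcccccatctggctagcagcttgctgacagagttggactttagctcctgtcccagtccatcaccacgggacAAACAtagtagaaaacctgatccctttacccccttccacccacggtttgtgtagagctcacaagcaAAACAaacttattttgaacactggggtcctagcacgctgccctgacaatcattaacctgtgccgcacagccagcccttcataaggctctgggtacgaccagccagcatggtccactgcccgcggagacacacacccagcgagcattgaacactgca

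These matches are descriptions of sequence, not binding sites found in these livers. The RefSeq start used for Irs2 lies upstream of the end of the GENCODE gene model given below, so the distances refer to the RefSeq start alone.

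Insr, at chr8:3122061-3279617 on the minus strand of GRCm38, was nearly level across the groups. Levels are given as CPM, counts relative to the library total after edgeR's TMM scaling. Insr measured 173, 176, 181 and 183 CPM in the CD fed livers and 159.7, 202, 168 and 217 CPM in CD fast. It measured 176, 168, 174 and 166 CPM in HFD fed and 172, 183, 177 and 168 CPM in HFD fast. The groups overlapped throughout, and the widest spread was within CD fast, with a coefficient of variation of 14.5% against 2.55% to 3.68% in the other groups. The log2 fold change lay between -0.09 (HFD in fasted mice) and 0.07 (fasting in CD), each with an SE of 0.08. The 95% confidence intervals of the 4 pairwise changes ran from -0.27 at the lowest bound to 0.25 at the highest.

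**Figure D1:**
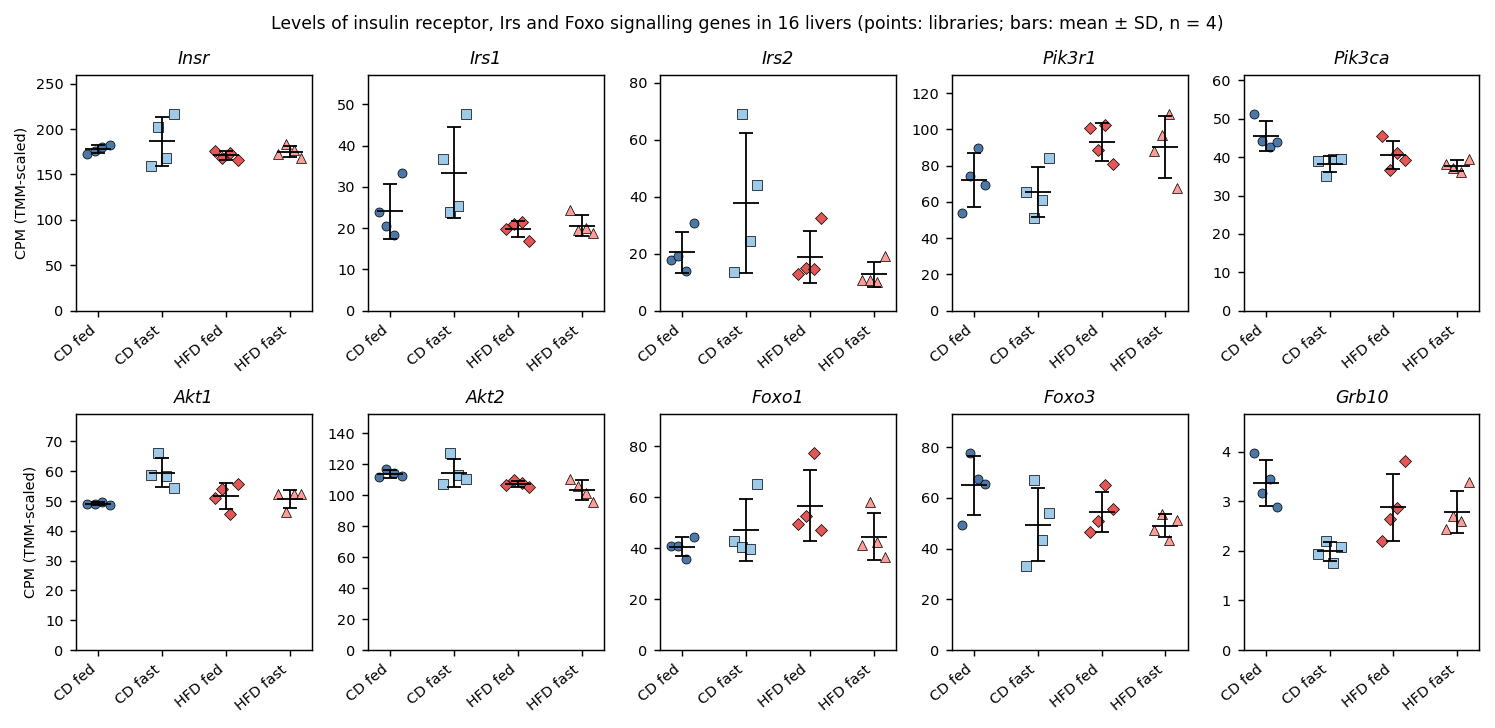
Level of each gene in CPM (linear axes from 0) in the 4 groups; points are libraries and bars give the mean ± SD of 4. Grb10 and Akt1 in CD fast lie apart from CD fed, Irs2 is spread most in CD fast (13.6 to 69.1 CPM), and Insr and Akt2 are nearly level.

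Irs2 (chr8:10984681-11008458, minus strand), the adaptor that carries much of the insulin signal in fasted liver, varied more than any other of the 10. It measured 17.8, 19.3, 14.1 and 30.9 CPM in CD fed and 13.6, 69.1, 24.4 and 44.2 CPM in CD fast. In HFD fed livers it measured 12.9, 15.1, 14.6 and 32.5 CPM, and in HFD fast livers 10.9, 10.8, 10.1 and 19.2 CPM. Of the CD fast livers, replicates 2 and 4 were above all other livers, whereas replicate 1 was within the HFD fast range. The mean was 37.8 ± 24.4 CPM (SD, n = 4) in CD fast and 12.7 ± 4.31 CPM (SD, n = 4) in HFD fast. This is the comparison in which Irs2 was called, with a log2 fold change of -1.57 (SE 0.43) and an adjusted p of 0.0380 by edgeR, although the libraries of the groups overlapped. The call did not hold under limma-voom (adjusted p = 0.0778) or in a fit of CD fast and HFD fast alone (adjusted p = 0.0926), which called 0.623% of all genes. Without CD fast replicate 2 the change was -1.11 with an adjusted p of 0.120 by edgeR, and the call was also lost without CD fed replicate 2 (0.0511), CD fast replicate 4 (0.0690), or HFD fast replicate 1 (0.0741), 2 (0.0735) or 3 (0.0996).

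Fasting changed Irs2 by 0.88 (SE 0.42) on the log2 scale in CD mice and by -0.56 (SE 0.43) in HFD mice, with adjusted p of 0.141 and 0.436 by edgeR. The difference of these changes was -1.44 (SE 0.60, 95% confidence interval -2.72 to -0.16), with an unadjusted p of 0.0297 and an adjusted p of 0.195 by edgeR. Without CD fast replicate 2 the change with fasting in CD was 0.42 (adjusted p = 0.499 by edgeR), and without CD fast replicate 1 it was 1.16 and was called (0.0422). Without HFD fed replicate 4 the change in HFD mice was -0.16 (adjusted p = 0.838 by edgeR).

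Irs1 (chr1:82233101-82291416, minus strand), the paralogous adaptor, measured 23.9, 20.6, 18.4 and 33.4 CPM in CD fed and 36.8, 24.0, 25.3 and 47.7 CPM in CD fast. It measured 19.8, 21.0, 21.5 and 17.0 CPM in HFD fed and 24.3, 19.5, 20.0 and 18.8 CPM in HFD fast. The HFD livers were the more even, between 17.0 and 24.3 CPM, and replicates 1 and 4 of CD fast were the highest of all 16. HFD in fasted mice gave -0.70 (SE 0.21) with an adjusted p of 0.0507 by edgeR, just outside the threshold, and DESeq2 gave an adjusted p of 0.0139. This change of Irs1 was called in 6 of the 16 fits without a library, with adjusted p of 0.0357 to 0.133 over the 16. Fasting in CD gave 0.48 (SE 0.21, adjusted p = 0.103 by edgeR) and fasting in HFD 0.06 (SE 0.21, adjusted p = 0.885). The change with fasting in CD was 0.25 without CD fast replicate 4 (adjusted p = 0.372 by edgeR) and 0.67 without CD fed replicate 4, where it was called (0.0277).

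Within CD fast, replicate 2 was the highest for Irs2 and the lowest for Irs1, whereas replicate 4 was high for both. Per kilobase of exon, the ratio of Irs2 to Irs1 ranged from 0.533 to 4.17 within CD fast, with a mean of 1.86 ± 1.59 (SD, n = 4). Means in the other groups were 1.22 ± 0.149 for CD fed, 1.43 ± 0.888 for HFD fed and 0.913 ± 0.380 for HFD fast (SD, n = 4 each). Over the 16 livers the Pearson correlation of Irs1 and Irs2 was 0.376, and -0.06 after each group's mean was removed, given here as a description of log2 CPM values that share library scaling.

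The 3 genes whose levels were most like those of Irs2 were Ppp1r3g, Fst and Igfbp1, among 11003 genes with a mean of at least 100 counts. Their Pearson correlations with Irs2 in log2 CPM over the 16 livers were 0.941, 0.919 and 0.915, and 0.913, 0.904 and 0.885 after removal of the group means. Ppp1r3g encodes a subunit that directs protein phosphatase 1 to glycogen, Fst encodes the activin-binding protein follistatin, and Igfbp1 encodes a secreted binding protein of insulin-like growth factors whose liver transcription is lowered by insulin. Igfbp1 measured 39.7, 616, 38.0 and 117 CPM in CD fast replicates 1 to 4, and Ppp1r3g measured 0.684, 110.3, 5.73 and 35.4 CPM in the same livers. In HFD fast, Igfbp1 measured 18.3, 11.4, 11.1 and 31.9 CPM, and Ppp1r3g 1.35, 0.544, 1.19 and 2.97 CPM. In both genes CD fast replicate 2 was the highest liver of all 16, as it was for Irs2, and replicate 4 was the highest within HFD fed and within HFD fast.

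**Figure D2:**
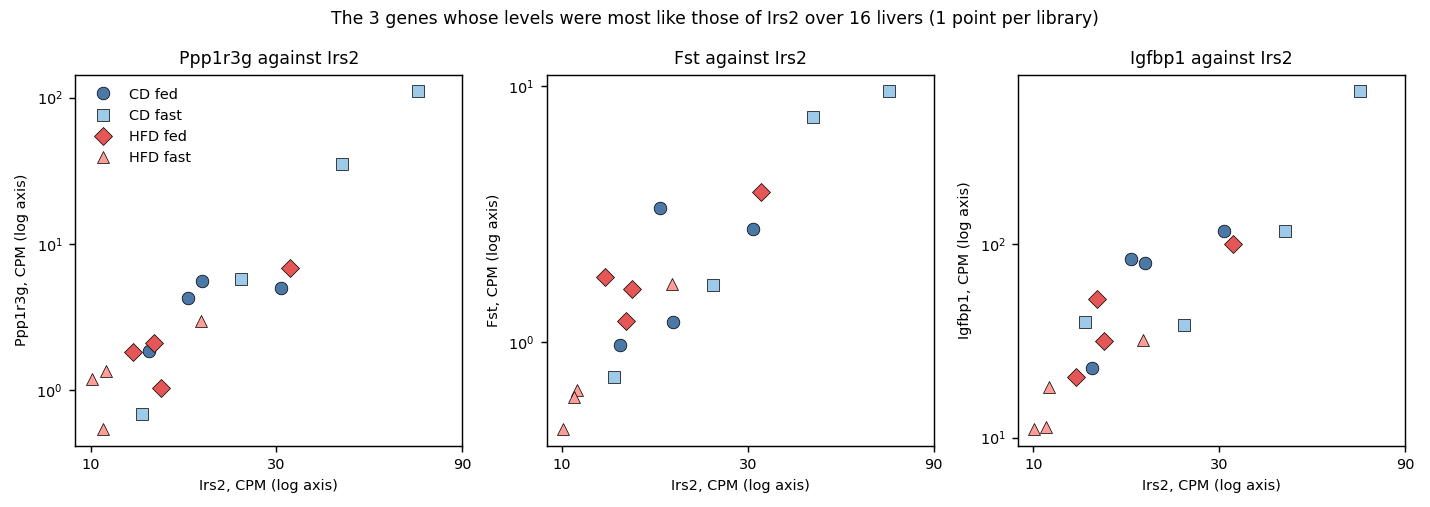
Ppp1r3g, Fst and Igfbp1 against Irs2, all in CPM on log axes, with 1 point per library and a symbol per group. The points rise together in each plot, CD fast replicate 2 is at the upper right end (69.1 CPM of Irs2) and most HFD fast livers are at the lower left.

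Grb10 (chr11:11930508-12038683, minus strand) encodes an adaptor that binds the activated receptor and dampens its signal. It was by far the least abundant of the 10, with 82 to 218 counts per library. It measured 3.97, 3.17, 3.45 and 2.89 CPM in CD fed and 1.93, 2.20, 1.75 and 2.09 CPM in CD fast, so that every fasted CD liver was below every fed one. It measured 2.20, 2.65, 2.86 and 3.81 CPM in HFD fed and 2.45, 2.70, 2.60 and 3.39 CPM in HFD fast, where the groups overlapped. Fasting in CD lowered Grb10 by 40.9%, a log2 fold change of -0.76 (SE 0.17) with an adjusted p of 0.00462 by edgeR. This was the only change among the 10 genes that was called under every alternative and without each of the 16 libraries, where it lay between -0.83 and -0.67. In HFD mice the change was -0.05 (SE 0.17, adjusted p = 0.883 by edgeR). The difference between the diets, 0.71 (SE 0.24), had an unadjusted p of 0.00896 and an adjusted p of 0.116 by edgeR, and 0.0442 without HFD fed replicate 4, so that it was called only in that fit. In fasted mice Grb10 was higher on HFD by 0.48 (SE 0.17, adjusted p = 0.0888 by edgeR), without overlap of the libraries, and was called with total count scaling (0.0344).

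Summed levels of endothelial, Kupffer, stellate, erythrocyte, pancreas and also hepatocyte markers were lower on average in CD fast than in CD fed, as Grb10 was, and those of cholangiocyte, T or B cell and adipocyte markers were not. The summed level of 5 endothelial markers was 198 to 223 CPM in CD fed and 147 to 194 CPM in CD fast, without overlap, and 187 to 204 and 179 to 236 CPM in HFD fed and HFD fast. The sum of 6 Kupffer cell markers was 218 to 372 CPM in CD fed and 145 to 226 CPM in CD fast, and that of 5 stellate cell markers 182 to 233 and 114 to 189.7 CPM, both with overlap. The sum of 5 cholangiocyte markers was 26.0 to 31.0 CPM in CD fed and 29.7 to 62.3 CPM in CD fast, and that of 4 T or B cell markers averaged 2.04 and 2.10 CPM. With fasting in CD, 2 of the 5 endothelial, 2 of the 6 Kupffer cell, 1 of the 5 stellate cell and 0 of the 9 cholangiocyte and T or B cell markers had an adjusted p under 0.05 by edgeR, 20.0% of these 25 genes against 25.2% of all genes. The sum of 3 erythrocyte markers was 269.9 to 346 CPM in CD fed and 172 to 304 CPM in CD fast, with overlap, and 1 of the 3, the heme synthesis gene Alas2, was called (adjusted p = 1.2e-05 by edgeR). The pancreas list, nearly all Cela1, summed to 14.02 to 23.2 CPM in CD fed and 6.04 to 11.8 CPM in CD fast, without overlap (adjusted p of Cela1 = 0.0027 by edgeR), and the hepatocyte sum averaged 116900 and 95900 CPM. The hepatocyte sum was mostly Alb, which was not called (adjusted p = 0.1805 by edgeR). Of the 6 hepatocyte markers 1 was called with fasting in CD, Ttr (adjusted p = 0.0044 by edgeR), 16.7% against 25.2% of all genes. In HFD fast, where Grb10 was above CD fast, the stellate sum was 205 to 299.5 CPM, also above CD fast without overlap, and the Kupffer sum was 189 to 335 CPM. For HFD in fasted mice Stab2, Pecam1 and Reln were called, 3 of the same 25 markers against 7.7% of all genes, and so was Alas2. The part of these cells in the change of Grb10 was not tested, and in whole liver fewer cells of a type and less RNA per cell cannot be told apart. The genes most like Grb10 were Ttc21b (r = 0.935), the proliferation marker Mki67 (0.930) and the integrin gene Itga8 (0.921), over the same 16 livers. After removal of the group means these correlations were 0.878, 0.828 and 0.857. Mki67 measured 3.88 to 6.42 CPM in CD fed and 0.689 to 1.51 CPM in CD fast.

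Phosphoinositide 3-kinase is represented by Pik3r1, its regulatory subunit p85 alpha, and Pik3ca, its catalytic subunit p110 alpha. Pik3ca (chr3:32397671-32468486, plus strand) measured 51.3, 44.2, 42.8 and 43.9 CPM in CD fed and 38.9, 35.2, 39.6 and 39.4 CPM in CD fast, without overlap. It measured 45.4, 36.7, 41.1 and 39.2 CPM in HFD fed and 38.3, 37.2, 36.1 and 39.4 CPM in HFD fast, with overlap. Fasting in CD lowered Pik3ca by 16.0%, a log2 fold change of -0.25 (SE 0.08, adjusted p = 0.0246 by edgeR). The call was lost without CD fed replicate 1 (adjusted p = 0.0854), without CD fast replicate 2 (0.0739) and in the fit of both CD groups alone (0.0523). In HFD mice the change was -0.10 (SE 0.08, adjusted p = 0.410 by edgeR), and the difference between the diets was 0.15 (95% confidence interval -0.08 to 0.37). Without 1 library, the change in HFD mice ranged from -0.151 to -0.047 and the difference from 0.084 to 0.204. Genes most like Pik3ca were 4932438A13Rik (r = 0.908), Evi5 (0.906) and Adam17 (0.904), with 0.803, 0.89 and 0.833 after removal of the group means.

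Pik3r1 (chr13:101680563-101768217, minus strand) measured 54.1, 74.6, 89.9 and 69.4 CPM in CD fed and 65.5, 51.2, 61.2 and 84.1 CPM in CD fast. On HFD it measured 101, 88.6, 102 and 80.7 CPM in fed and 88.4, 96.9, 109 and 67.7 CPM in fasted livers. The HFD means were above the CD means in both states, but the libraries overlapped. HFD gave 0.37 (SE 0.17, adjusted p = 0.210 by edgeR) in fed and 0.46 (SE 0.17, adjusted p = 0.105) in fasted mice. Neither passed the test, and unadjusted p values were 0.0467 and 0.0163. In fasted mice it was called without CD fast replicate 4 (0.61, adjusted p = 0.0474 by edgeR) and with total count scaling (0.62, 0.0239). Per kilobase, the ratio of Pik3r1 to Pik3ca averaged 1.45 ± 0.388 for CD fed, 1.54 ± 0.272 for CD fast, 2.07 ± 0.177 for HFD fed and 2.17 ± 0.491 for HFD fast (SD, n = 4 each).

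Akt1 and Akt2 encode the protein kinases at the centre of the route. Akt1 (chr12:112653821-112674884, minus strand) measured 48.9, 49.0, 49.8 and 48.5 CPM in CD fed and 58.9, 66.1, 58.5 and 54.3 CPM in CD fast. The fed livers lay within a coefficient of variation of 1.08%, and every fasted liver was above them. On HFD Akt1 measured 51.1, 53.9, 45.6 and 55.6 CPM in fed and 52.3, 46.3, 52.4 and 52.3 CPM in fasted livers, which overlapped. Fasting in CD raised Akt1 by 21.1%, a log2 fold change of 0.28 (SE 0.07, adjusted p = 0.0130 by edgeR). The call held without each of the 16 libraries and was lost when libraries were scaled by their total counts alone (adjusted p = 0.0636). In HFD mice the change was -0.02 (SE 0.07, adjusted p = 0.888 by edgeR). The difference between the diets was -0.30 (SE 0.10), with an unadjusted p of 0.0116 and an adjusted p of 0.128 by edgeR. In fasted mice Akt1 was lower on HFD by a log2 fold change of -0.23 (SE 0.07, adjusted p = 0.0716), again without overlap, and was called by DESeq2 (0.0275) and without CD fast replicate 4 (0.0478). Genes most like Akt1 were Ncaph2 (r = 0.883), Urm1 (0.875) and Ric8a (0.874), with 0.748, 0.757 and 0.754 after removal of the group means.

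Akt2 (chr7:27591552-27640826, plus strand), the isoform best known for metabolic effects of insulin in liver, measured 111 to 117 CPM in CD fed and 107 to 127 CPM in CD fast livers. On HFD it measured 105 to 109.7 CPM in fed and 95.3 to 110.1 CPM in fasted livers. Its change with fasting in CD was 0.01 (SE 0.06), with a 95% confidence interval of -0.13 to 0.15. HFD fed livers lay below CD fed livers without overlap, by a log2 fold change of -0.08 (SE 0.06, adjusted p = 0.488 by edgeR). Per kilobase, the ratio of Akt1 to Akt2 was 0.752 ± 0.0144 in CD fed and 0.905 ± 0.0404 in CD fast (SD, n = 4 each). It was 0.837 ± 0.0775 in HFD fed and 0.860 ± 0.0842 in HFD fast. These ratios are given as a description and are made from the values already tested one by one.

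**Figure D3:**
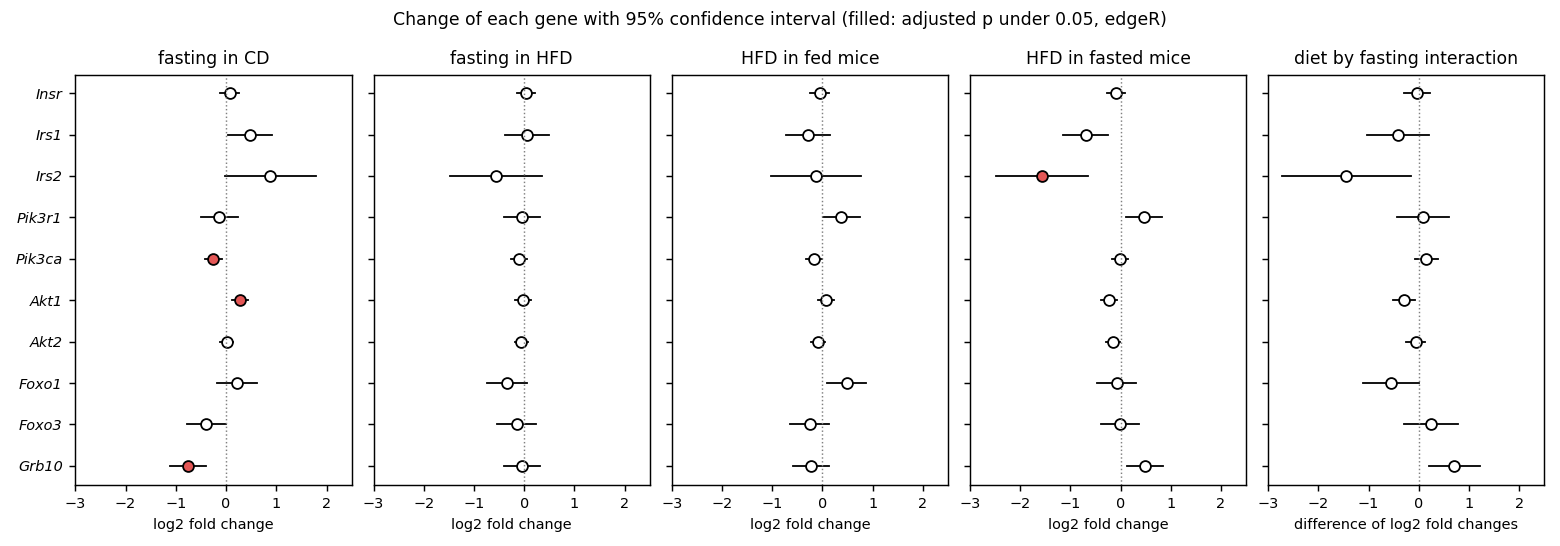
Log2 fold change of each gene in 4 comparisons and, at the right, the difference between the fasting changes of HFD and CD mice; bars are 95% confidence intervals and filled points had an adjusted p under 0.05. Filled points are Akt1, Pik3ca and Grb10 for fasting in CD and Irs2 for HFD in fasted mice, and no point is filled in the other panels.

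Foxo1 (chr3:52268336-52353221, plus strand), the main Foxo factor of hepatic gluconeogenesis, measured 40.9, 41.0, 35.5 and 44.5 CPM in CD fed and 42.9, 40.3, 39.7 and 65.1 CPM in CD fast. It measured 49.5, 52.4, 77.2 and 47.3 CPM in HFD fed and 41.2, 57.9, 42.3 and 36.5 CPM in HFD fast. Each HFD fed liver was above each CD fed liver, with a change of 0.48 (SE 0.19), an unadjusted p of 0.0194 and an adjusted p of 0.127 by edgeR. Without HFD fed replicate 3 this change was 0.30 (adjusted p = 0.380 by edgeR). Fasting gave 0.21 (SE 0.19) in CD and -0.35 (SE 0.19) in HFD mice, with adjusted p of 0.423 and 0.254 by edgeR, and the change in CD was 0.0091 without CD fast replicate 4. The difference of -0.56 (SE 0.26) had an unadjusted p of 0.0479 and an adjusted p of 0.243 by edgeR. Without HFD fed replicate 3 the change in HFD mice was -0.16 (adjusted p = 0.633 by edgeR) and the difference -0.37.

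Foxo3 (chr10:42181841-42276755, minus strand) encodes a related factor with overlapping targets. It measured 49.3, 77.6, 67.3 and 65.6 CPM in CD fed and 33.2, 67.1, 43.6 and 53.9 CPM in CD fast. On HFD it measured 46.5 to 65.1 CPM in fed and 43.5 to 53.8 CPM in fasted livers. Fasting in CD gave -0.39 (SE 0.18, adjusted p = 0.123 by edgeR), and the groups overlapped in every comparison. It was called with the replicate number as a block (-0.41, adjusted p = 0.0488 by edgeR) and without CD fast replicate 2 (-0.58, 0.0297), and ranged from -0.58 to -0.24 without 1 library. Per kilobase, the ratio of Foxo3 to Foxo1 averaged 1.85 ± 0.389 in CD fed and 1.25 ± 0.467, 1.12 ± 0.159 and 1.29 ± 0.233 in CD fast, HFD fed and HFD fast (SD, n = 4 each).

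Counted by overlap alone, 3 of the 10 genes had CD fast and CD fed libraries that did not overlap (Akt1, Pik3ca and Grb10), against 25.4% of all tested genes. For fasting in HFD this held for 0 against 16.7%. For HFD it held for 2 in fed mice (Foxo1 and Akt2) against 15.7%, and for 2 in fasted mice (Akt1 and Grb10) against 14%.

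Per kilobase of exon, the order of the mean levels was Akt2 (15.4), Insr (12.9), Akt1 (12.9), Pik3r1 (7.96), Foxo3 (7.20), Foxo1 (5.44), Pik3ca (4.46), Irs2 (3.55), Irs1 (2.68) and Grb10 (0.303), in CPM per kilobase. The ranges of neighbours in this order over the 16 livers overlapped, with 2 exceptions. Akt1 (11.1 to 16.1) was apart from Pik3r1 (5.08 to 10.8), and Irs1 (1.86 to 5.22) from Grb10 (0.193 to 0.437). Irs2 spanned the widest range for its mean, from 1.59 to 10.9. The order is of means over all 4 groups, and within single groups some neighbours changed places. Irs2 was below Irs1 in HFD fast (2.01 and 2.26), but in CD fast, at 5.98, it was above Pik3ca (4.21) and Foxo1 (5.42). Akt1 was above Insr in CD fast (14.5 and 13.6) and in HFD fed (12.58 and 12.44). Foxo3 was above Pik3r1 in CD fed (8.58 and 7.14) and in CD fast (6.53 and 6.50). Pik3ca was above Foxo1 in CD fed (5.01 and 4.67).

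**Figure D4:**
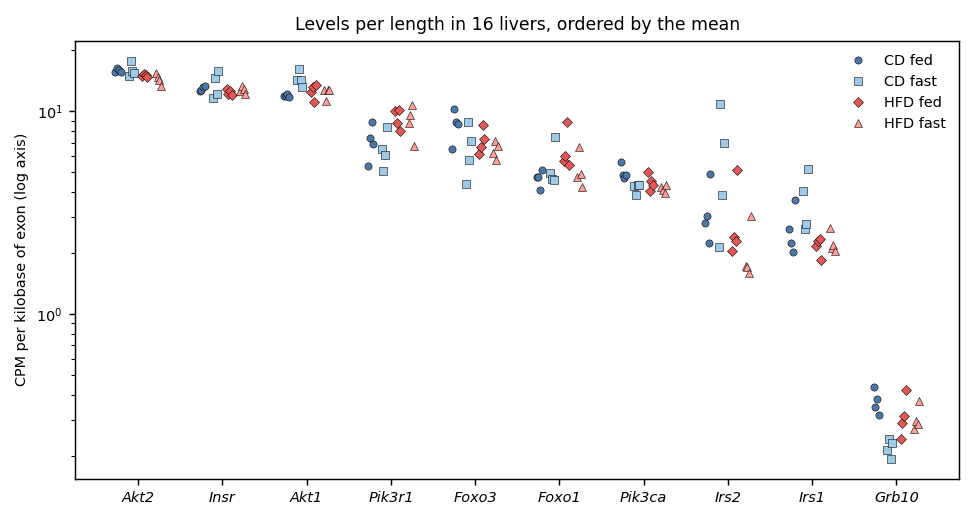
CPM per kilobase of exon (log axis) for the 10 genes in order of their mean, with 1 point per library and a symbol per group. Grb10, at 0.193 to 0.437, is separate from Irs1, Akt1 lies just above Pik3r1 without overlap, and Irs2 shows the widest scatter.

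Around the 10 genes, 42 other genes of insulin signalling were examined, of which 39 were tested. Fasting in CD raised 5 and lowered 7 of them, 30.8% in all against the 25.2% of all genes. Sh2b1, an adaptor that promotes receptor signalling, rose by 0.63 (SE 0.09), the kinase subunit gene Pik3r2 by 0.45 (SE 0.08) and Mtor by 0.45 (SE 0.10), and all 3 calls held without each library. Another regulatory subunit gene, Pik3r3, fell by 1.001 (SE 0.29), Mlst8, a subunit of both mTOR complexes, by 0.47 (SE 0.09), and the ubiquitin ligase gene Cbl by 0.41 (SE 0.12). Of these, Mlst8 was called without each library, whereas Pik3r3 lost its call without CD fed replicate 3 or CD fast replicate 2 or 4, and Cbl without CD fed replicate 4 or CD fast replicate 2 (adjusted p up to 0.0611 and 0.0648 by edgeR).

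In HFD mice fasting raised 1 and lowered 3 of the 39, 10.3% in all against 8.86% of all genes. Phlpp1, a phosphatase gene of the Akt pathway, rose by 0.24 (SE 0.07, adjusted p = 0.0499 by edgeR), a call lost in 13 of the 16 fits that left out a library. Its relative Phlpp2 fell by 0.54 (SE 0.12), Foxo4 by 0.48 (SE 0.09) and the Ras activator gene Sos1 by 0.47 (SE 0.09), all of which were called without each library. HFD in fed mice raised 2 and lowered 2, 10.3% against 7.5% of all genes. Enpp1, which encodes an inhibitor of the receptor, rose by 0.46 (SE 0.10) and Mtor by 0.41 (SE 0.10), the latter with a call lost in 6 of 16 such fits. The adaptor gene Grb7 fell by 0.48 (SE 0.09) and Phlpp1 by 0.46 (SE 0.07).

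HFD in fasted mice raised 2 and lowered 1 of the 39, 7.69% in all against 7.7% of all genes. Mlst8 rose by 0.54 (SE 0.09) and Cbl by 0.42 (SE 0.12), and Sh2b1 fell by 0.40 (SE 0.09). Of these, only Mlst8 was called without each library, and the fit of CD fast and HFD fast alone called 0 of the 39, against 0.623% of all genes. Mlst8 was also the 1 gene of the 39 with a called interaction, 2.56% against 2.59% of all genes. The interaction was 0.61 (SE 0.13, adjusted p = 0.0248 by edgeR), a call lost without CD fed replicate 2 (0.0567).

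A list of 18 genes described as raised by FOXO1 or by low insulin did not move one way with fasting in CD, where 4 rose and 4 fell, 44.4% in all against 25.2% of all genes. The coactivator gene Ppargc1a rose by 1.24 (SE 0.39), the triglyceride lipase gene Pnpla2 by 1.19 (SE 0.23) and the mitophagy receptor gene Bnip3 by 0.89 (SE 0.12). Gadd45a, a growth arrest gene, fell by 1.55 (SE 0.30), Sesn3 by 0.76 (SE 0.14) and Cited2 by 0.72 (SE 0.25). Ppargc1a was called in 12 of the 16 fits without a library and changed by 0.71 (adjusted p = 0.141 by edgeR) without CD fast replicate 2, whereas Cited2 lost its call in 13 of them. The other 4 named genes were called in every one.

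In HFD mice the same list showed 0 rises and 3 falls with fasting, 16.7% in all against 8.86% of all genes. G6pc, the glucose-6-phosphatase of gluconeogenesis, fell by 1.49 (SE 0.38), Pck1, its phosphoenolpyruvate carboxykinase, by 0.86 (SE 0.25), and the transcription factor gene Klf15 by 0.68 (SE 0.16). Leaving out a library ended these calls in 4, 10 and 3 of 16 fits, with adjusted p of up to 0.131 by edgeR. HFD in fed mice changed 3 of the 18, 16.7% against 7.5% of all genes. It raised Pnpla2 by 0.88 (SE 0.23) and Bnip3 by 0.75 (SE 0.12) and lowered Apoc3 by 0.47 (SE 0.12), of which Bnip3 alone kept its call without each library.

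For HFD in fasted mice, 5 of the 18 fell and 0 rose, 27.8% in all against 7.7% of all genes. Igfbp1 fell by 3.48 (SE 0.85, adjusted p = 0.0236 by edgeR), G6pc by 1.71 (SE 0.38) and Pck1 by 1.49 (SE 0.26). The size for Igfbp1 rests on CD fast replicate 2, at 616 CPM: without it the change was -1.83 with an adjusted p of 0.0904 by edgeR. The fit of CD fast and HFD fast alone called 1 of the 18, against 0.623% of all genes. G6pc and Pck1 were called without each library, and Pck1 measured 3369, 7106, 5316 and 6915 CPM in CD fast and 2459, 1848, 1503 and 2300.3 CPM in HFD fast, without overlap. The interaction was called for 4 of the 18, 22.2% against 2.59% of all genes: Gadd45a (1.78, SE 0.41), Pck1 (-1.60, SE 0.36), Pnpla2 (-1.39, SE 0.33) and Bnip3 (-0.99, SE 0.16), of which only Bnip3 kept its call without each library.

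Fasting in CD lowered all 4 genes described as induced by insulin, where 25.2% of all genes were called. The lipase-like gene Pnpla3 fell by 4.96 (SE 0.30), Fasn, which encodes fatty acid synthase, fell by 3.44 (SE 0.20), and Angptl8, a regulator of lipoprotein lipase, fell by 2.003 (SE 0.53). In HFD mice 3 of the 4 fell, against 8.86% of all genes called. These were Fasn, which fell by 1.47 (SE 0.19), Pnpla3 by 1.15 (SE 0.30) and the lipogenic regulator gene Srebf1 by 1.06 (SE 0.20). HFD in fed mice, with 7.5% of all genes called, lowered Pnpla3 by 3.71 (SE 0.27) and Fasn by 1.54 (SE 0.19). In fasted mice, with 7.7% of all genes called, HFD raised Srebf1 by 1.21 (SE 0.20), and the fit of the fasted groups alone called 0 of the 4, against 0.623% of all genes. The difference between the diets was called for Pnpla3 (3.80, SE 0.42) and Fasn (1.97, SE 0.26). Of these, the call for Pnpla3 with fasting in HFD was lost in 6 of 16 fits without a library, and the others held in all 16.

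**Figure D5:**
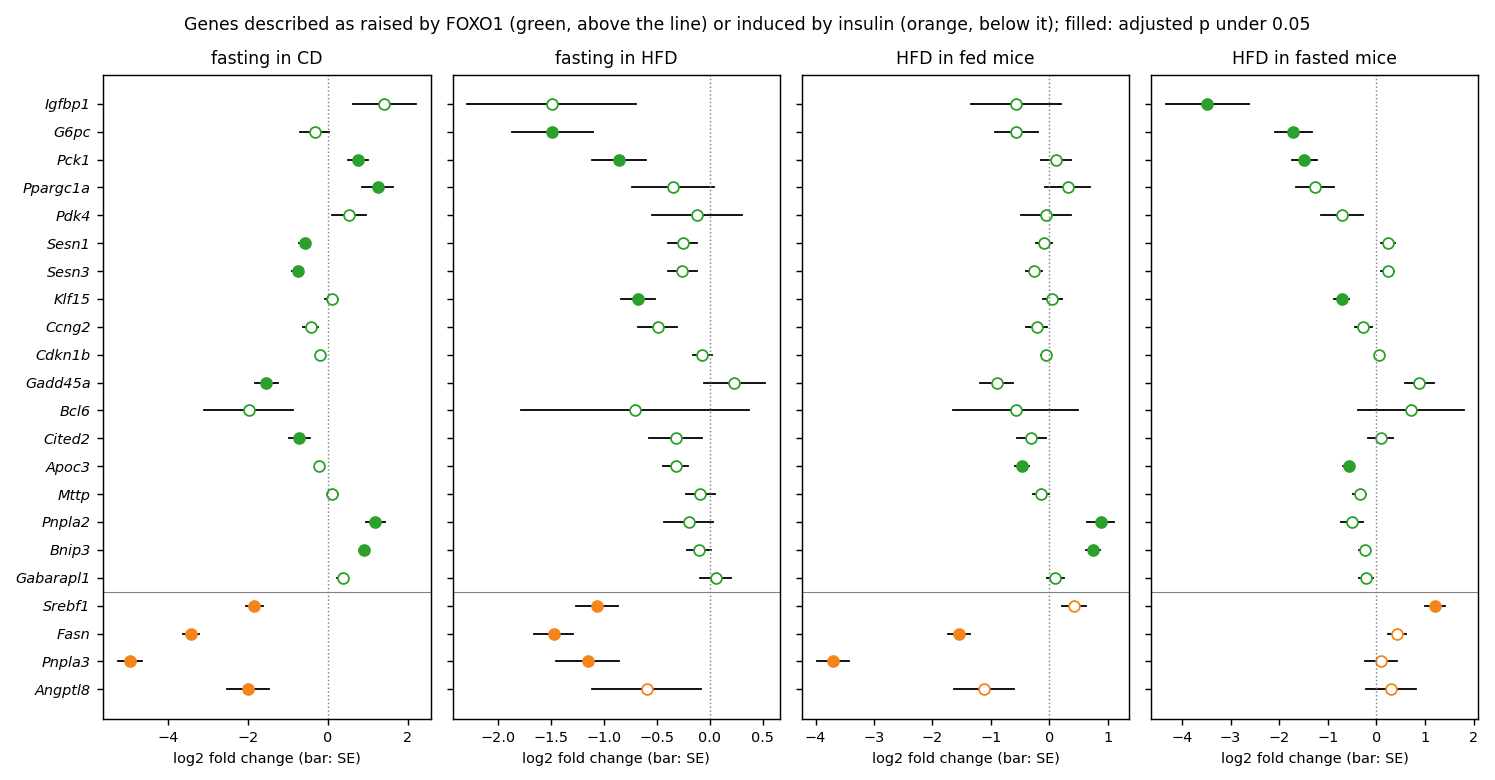
Log2 fold changes with their SE for 18 genes described as raised by FOXO1 or low insulin (green) and 4 described as induced by insulin (orange) in the 4 pairwise comparisons; each panel has its own axis and filled points had an adjusted p under 0.05. The 4 orange genes lie to the left under fasting in CD, and Igfbp1, G6pc and Pck1 lie to the left for HFD in fasted mice.

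The libraries held 41364448 to 57583153 counts, and the 3 counts used as a floor of detection correspond to 0.0536 to 0.0767 CPM, below every value of the 10 genes. This floor covers counting error only, whereas the confidence intervals of the changes include the spread between livers. All 6 hepatocyte markers were high, with a sum of 70310 to 137000 CPM. The adipocyte markers Adipoq, Plin1 and Lep ranged from 0 to at most 0.976, 0.394 and 0.781 CPM. Of the pancreas markers, Amy2a2 was at 0 and Prss2 at 0 to 0.118 CPM. The sum of the adipocyte list, up to 70.2 CPM in HFD fast, was mostly Cfd, and that of the pancreas list, 6.04 to 23.2 CPM, mostly Cela1. Sums over all 16 livers were 22.2 to 62.3 CPM for 5 cholangiocyte markers, 0.811 to 3.74 CPM for 4 T or B cell markers and 172 to 402 CPM for 3 erythrocyte markers. No gene that overlaps one of the 10 held more than 3.29% of its counts, the highest share being that of Gm37123 within Pik3ca, with no shared exon base.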

How the data were processed

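Raw counts per Ensembl gene were deposited by the authors in 1 table for 16 livers. Per the labels and the study's methods, the authors selected polyadenylated RNA, sequenced paired ends, aligned to GRCm38 (mm10) with TopHat2 2.0.11 and counted with featureCounts. Alignment was set for first-strand libraries, with annotation from Illumina iGenomes. The strand and pair settings of featureCounts and the release of the annotation are not given in the sources used here. Groups came from the sample labels. Library totals were 41364448 to 57583153 counts.

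Counts were fitted in R 4.3.3 with edgeR 4.0.16 (filterByExpr, 15075 genes, TMM, 1 coefficient per group over 16 libraries, 12 residual degrees of freedom, quasi-likelihood test). P values were adjusted by Benjamini-Hochberg over all tested genes, with a threshold of 0.05. Log2 CPM used a prior count of 2. Alternatives were DESeq2 1.42.0, limma-voom (limma 3.58.1), DESeq2 size factors, total count scaling, no filter, at least 50 counts in 4 libraries, a fit of the compared groups alone, a replicate block, an adjusted p under 0.01, and each library left out. The edgeR, limma-voom and DESeq2 fits were tested on simulated counts with known changes between CD fed and CD fast. Within-group pairs of libraries differed by far more than sampling noise (chi-square per gene 35.8 or more in 24 pairs). The p values measure the spread between livers, estimated over all groups together. Nothing says how the mice were grouped in handling, so handling shared within a group cannot be told apart from the effect of the group.

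The genes, the lists and the tests were chosen with earlier results of these data known. Named genes were all 10 members, up to 3 called rises and 3 called falls with the largest change per list and comparison, and per called member the 3 genes with a mean of at least 100 counts and the highest correlation with it. A gene of the signalling list and one of the insulin-induced list are not reported here. Marker lists were those of hepatocytes, Kupffer, endothelial, stellate and T or B cells, cholangiocytes, adipocytes, erythrocytes and pancreas. Positions are from GENCODE M21 and promoter windows from RefSeq on GRCm38.p6.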

Additional observations from a re-analysis of the deposited data

Results flagged for a closer look

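Of 88 groups of 4 libraries, 40 of the 10 genes and 48 of the genes most like them, 9 held a library farther from the other 3 than Dixon's critical value allows. Chance gives about 1 such group in 20. Irs2 stood at 32.46 CPM in HFD fed replicate 4 (others 12.88 to 15.15) and at 19.17 CPM in HFD fast replicate 4 (others 10.06 to 10.93). Pik3ca stood at 51.25 CPM in CD fed replicate 1 (others 42.75 to 44.20) and at 35.18 CPM in CD fast replicate 2 (others 38.86 to 39.60). Akt1 was low in HFD fast replicate 2 at 46.25 CPM (others 52.28 to 52.41), and Foxo1 was high in CD fast replicate 4 at 65.07 CPM (others 39.71 to 42.85). Among the genes most like Irs2 or Grb10, Fst stood at 1.697 CPM in HFD fast replicate 4, Igfbp1 at 615.8 CPM in CD fast replicate 2 and Mki67 at 7.705 CPM in HFD fed replicate 4.

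The fasting change differed between the diets for 7 of the 61 tested genes of the lists, where 2.59% of all genes were called, by the interaction term of edgeR with adjusted p under 0.05. The difference, HFD minus CD on the log2 scale, was 0.6145 for Mlst8, -1.605 for Pck1, 1.780 for Gadd45a, -1.387 for Pnpla2, -0.9927 for Bnip3, 1.970 for Fasn and 3.803 for Pnpla3. None of the 10 genes had a called difference.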

How the results depend on the processing

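Of the 50 changes of the 10 genes, 34 kept their direction under every alternative, and the 16 that reversed in at least 1 were none of the called ones and at most 0.15 in size on the log2 scale. Total count scaling moved the median change of all genes by up to 0.159, for HFD in fasted mice, and by -0.042 and 0.047 for fasting in CD and HFD mice, 0.071 for HFD with feeding and 0.089 for the interaction, so its values are to be read relative to those shifts. Of the 16, 4 reversed under that scaling alone, and 38 of the 50 kept their direction under every other alternative. It gave 0.06848 for Insr, 0.1418 for Pik3ca, 0.009545 for Akt2, 0.07375 for Foxo1 and 0.1491 for Foxo3 in that comparison. It also gave -0.03233 for Akt2 with fasting in CD, 0.02662 for Akt1 and 7.046e-05 for Grb10 with fasting in HFD, 0.01192 for Insr with HFD in fed mice, and 0.05655 for Insr and 0.02135 for Akt2 in the interaction. Foxo3 with HFD in fasted mice was 0.02925 by limma-voom, and Akt2 with fasting in CD was -0.005752 with no filter.

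Without 1 library, these changes also crossed 0. With fasting in CD, Insr ranged from -0.01807 to 0.1378 and Akt2 from -0.04472 to 0.03991. With fasting in HFD, Irs1 ranged from -0.02934 to 0.1026, Pik3r1 from -0.1448 to 0.07222, Akt1 from -0.07636 to 0.01720 and Grb10 from -0.1588 to 0.1171. For HFD, Irs2 in fed mice ranged from -0.5320 to 0.1373, and in fasted mice Pik3ca from -0.05774 to 0.001829, Foxo1 from -0.2330 to 0.1198 and Foxo3 from -0.1654 to 0.1674. In the interaction, Insr ranged from -0.1028 to 0.04123 and Pik3r1 from -0.03259 to 0.2288.

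The number of the 10 genes called for fasting in CD fell from 3 to 1 at an adjusted p under 0.01. The share of all genes called in this comparison was 12.3% at that threshold and 25.2% at 0.05. For HFD in fasted mice the 1 call, beside 7.7% of all genes, became 0 at an adjusted p under 0.01, beside 1.44%. The number was 0 by limma-voom (6.77% of all genes) and 0 with only the groups compared (0.623%). It was 2 with DESeq2 size factors (7.92%), 3 by DESeq2 (13.0%), 3 with total count scaling (13.9%) and 0 to 2 without 1 library. The interaction gave 0 to 1 without 1 library, the 1 being Grb10 without HFD fed replicate 4. The cause of these shifts was not tested. Over all genes, HFD in fasted mice gave 1161 calls, 90 with only the groups compared, 1967 by DESeq2 and 2101 with total count scaling. DESeq2 also gave 2009 calls against 1335 for fasting in HFD, 1768 against 1131 for HFD in fed mice, and 1066 against 390 for the interaction. At an adjusted p under 0.01 the calls were 1859 for fasting in CD and 331 in HFD, 338 for HFD with feeding and 217 with fasting, and 31 for the interaction.

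The labels do not say that a replicate number marks a shared cage, batch or day. A correlation over 0.1 in every pair, required here to treat numbers as pairs, was not seen. Same-numbered livers of different groups had deviations that correlated over 0.1 in 8 of 24 pairs (-0.24 to 0.66). Their median was 0.058, against 9.86e-05 for livers of different numbers, and 7 of 16 livers correlated best with their own number. The rule is strict, and failing it does not show that same-numbered livers were unrelated. With the replicate block, Foxo3 with HFD in fasted mice was 0.02246, and Foxo3 with fasting in CD was called (-0.41, adjusted p = 0.0488 by edgeR). Grb10, at 82 to 218 counts, has the least depth of the 10 genes.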
